A study of Mus musculus with 8 samples.

Results

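Eicosanoids are lipid mediators made from arachidonic acid, and the enzymes that make them were followed in MC903-treated skin with or without propionic acid. The set is a list of 10 genes given by name, and all 10 were found among the 25378 genes of the deposited table. They are the cyclooxygenases Ptgs1 and Ptgs2, the prostanoid synthases Ptges, Ptgds and Hpgds, the leukotriene genes Alox5, Alox5ap and Ltc4s, and the lipoxygenases Alox12 and Alox15. Total RNA of lesional back skin was sequenced in 4 propionic acid samples and 4 control samples from wild-type female C57BL/6 mice, 6 weeks old. All 8 animals, the controls included, had 5 nmol of MC903 (calcipotriol, a vitamin D analog) put on the back daily for 10 days. Propionic acid, a short-chain fatty acid, was applied at 1 mM, 1 h after MC903, while the control application is not described further, and skin was taken on day 11. No untreated skin is among the 8 samples, so the values describe differences within MC903-inflamed skin. Each sample is called a biological replicate and is counted as 1 mouse; if samples shared an animal, the p-values measure a technical spread.

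Arachidonic acid released from membranes has several fates. Cyclooxygenases turn it into prostaglandin H, which terminal synthases convert to prostaglandin E, prostaglandin D and other prostanoids. The 5-lipoxygenase, helped by its activating protein, makes leukotriene A, from which leukotriene C synthase makes the cysteinyl leukotrienes, while the 12- and 15-lipoxygenases make hydroxy acids. In skin, prostaglandins and leukotrienes are known for their parts in vasodilation, itch and leukocyte recruitment, and lipoxygenases of the epidermis for their part in the water barrier.

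Depth was nearly equal, at 39034193 to 40194111 whole reads per library recovered from the steps of the FPKM values (fragments per kilobase of gene, scaled to the library's fragments). Control replicates 1 and 3 stood apart on the first principal component, which held 38.9% of the variance, with scores of -26.0 to 11.8 in propionic acid samples, while the controls scored 31.8 (replicate 1), -16.3 (replicate 2), 26.7 (replicate 3) and -0.93 (replicate 4). All 12 keratinocyte markers passed the detection filter. They summed to between 9123 and 13199 FPKM in propionic acid skin and between 9212 and 13254 FPKM in control skin. Krt14 weighed most in this sum, which hides wider differences between mice in other markers. Krt10 had 90.6 to 426 FPKM in propionic acid skin and 30.6 to 583 FPKM in control skin. Krt5 had 894 to 1045 FPKM in propionic acid skin and 1056 to 1506 FPKM in control skin, without overlap, as had 3.16% of all genes tested.

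No enzyme of the set passed an adjusted p of 0.05. Alox15 and Ptgds had higher means with propionic acid and the smallest p-values, Alox12 had a higher mean with a wide spread, Hpgds and Alox5 had lower means, and the remaining 5 had a ratio of mean FPKM between 0.985 and 1.17. Differences were tested with limma on log2(FPKM + 1) over 12598 genes with 1 FPKM or more in at least 4 libraries, adjusted by the Benjamini-Hochberg method. At this threshold 0 genes were called in the whole table (0.0%), and 792 genes (6.29%) had an unadjusted p under 0.05, of which 513 (4.07%) were higher and 279 (2.21%) lower with propionic acid. All 10 enzymes passed the filter on low values, Alox12 in exactly 4 libraries (3 propionic acid, 1 control) and Alox15 in 5 (4 propionic acid, 1 control). Of the 10, 2 had an unadjusted p under 0.05, both higher, and 7 had a positive and 3 a negative log2 fold change, beside 51.7% positive over all genes tested. Their median log2 fold change was 0.10, beside 0.0061 over all genes tested. In bulk skin, fewer cells of a type and less RNA per cell cannot be told apart.

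**Figure D1:**
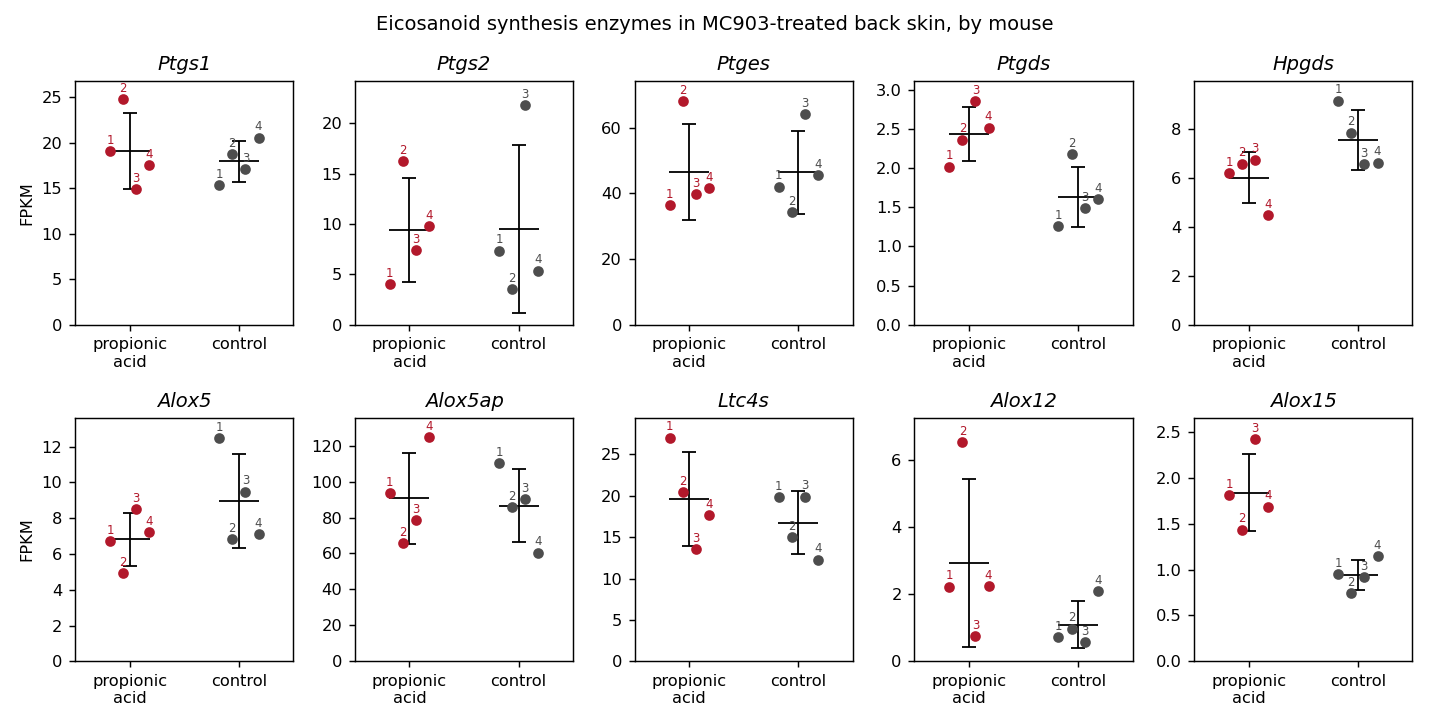
FPKM of each of the 10 enzymes (vertical axis, from 0) in 4 propionic acid mice (red) and 4 control mice (grey); numbers are replicates, and black bars are the mean ± SD. Only for Alox15 do the 2 groups not overlap, with 1.43 to 2.42 FPKM in propionic acid skin and 0.744 to 1.14 FPKM in control skin.

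**Figure D2:**
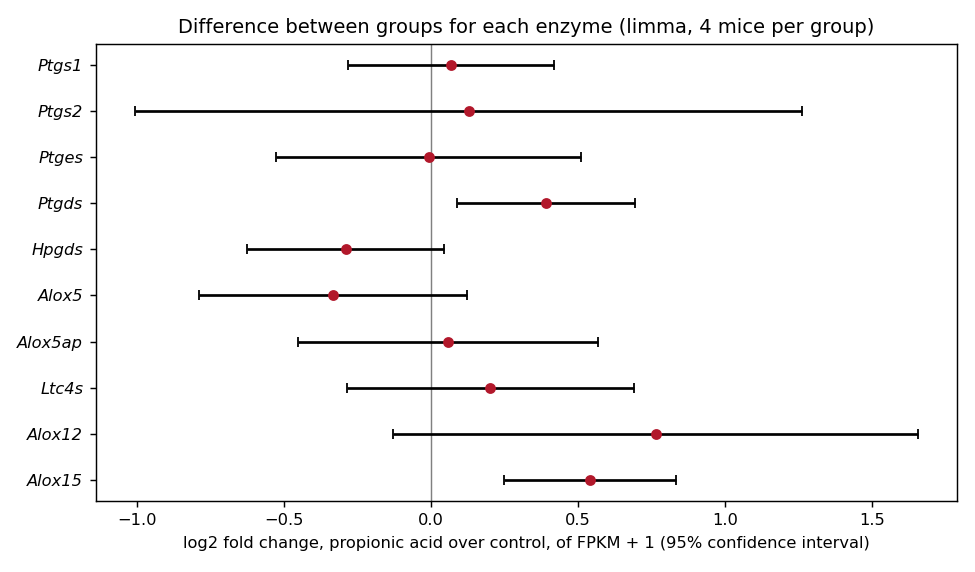
The limma log2 fold change of FPKM + 1, propionic acid over control, with its unadjusted 95% confidence interval, for each enzyme (4 mice per group). The intervals of Ptgds and Alox15 lie above 0, and that of Ptgs2 is wide, from -1.01 to 1.26.

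FPKM is scaled to gene length, so levels can be set side by side as far as the gene lengths used by the authors hold. Over all 8 mice the mean level was 88.6 ± 21.5 FPKM for Alox5ap, 46.5 ± 12.7 for Ptges, 18.5 ± 3.16 for Ptgs1, 18.2 ± 4.71 for Ltc4s, 9.45 ± 6.42 for Ptgs2, 7.90 ± 2.27 for Alox5, 6.79 ± 1.34 for Hpgds, 2.03 ± 0.550 for Ptgds, 2.02 ± 1.96 for Alox12 and 1.39 ± 0.563 for Alox15 (SD, n = 8). In this order, Ptges was above Ptgs1 and Hpgds above Ptgds in all 8 mice with no overlap of their ranges. The ranges of the other neighbours overlapped: Alox5ap exceeded Ptges in 7 of 8 mice, Ptgs1 exceeded Ltc4s in 4 of 8, and Ptgs2 exceeded Alox5 in 3 of 8. The place of Alox15 at the low end depends on the gene length the authors used, which is taken up with that gene. For the other enzymes the length implied by the FPKM values was 0.564 (Ptgds) to 1.27 (Ptgs1) times the GENCODE exon bases. The order of enzymes with close levels, such as Ptgs1 and Ltc4s, therefore depends on these lengths too.

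Ptgs1 and Ptgs2 encode cyclooxygenase 1, the form made steadily in many tissues, and cyclooxygenase 2, the form induced in inflammation. Ptgs1 had 19.1, 24.8, 14.9 and 17.6 FPKM in propionic acid replicates 1 to 4, against 15.3, 18.8, 17.1 and 20.6 FPKM in control replicates 1 to 4. The groups overlapped, with the highest and the lowest value both in propionic acid skin. The log2 fold change was 0.07, with a standard error (SE) of 0.16 and a 95% confidence interval of -0.28 to 0.42 (limma adjusted p = 0.95). It turned to -0.06 without propionic acid replicate 2. Ptgs2 had 4.03, 16.3, 7.44 and 9.79 FPKM in propionic acid replicates 1 to 4, against 7.35, 3.57, 21.8 and 5.37 FPKM in control replicates 1 to 4. One mouse of each group was high, propionic acid replicate 2 and control replicate 3, and the other 6 lay between 3.57 and 9.79 FPKM. For Ptgs2 the log2 fold change was 0.13 with an SE of 0.50 (limma adjusted p = 0.972), and it turned to -0.16 without propionic acid replicate 2, to -0.18 without control replicate 2 and to -0.018 without control replicate 4.

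The 2 cyclooxygenases differed in how much they varied between mice. The coefficient of variation over the 8 mice was 67.9% for Ptgs2 and 17.1% for Ptgs1, beside a median of 17.8% over all genes tested. The highest Ptgs2 value was 6.11 times the lowest, and for Ptgs1 this ratio was 1.66. Ptgs2 was below Ptgs1 in 7 of 8 mice. The level of Ptgs2 divided by that of Ptgs1 was 0.211, 0.657, 0.5 and 0.557 in propionic acid replicates 1 to 4, against 0.479, 0.19, 1.28 and 0.261 in control replicates 1 to 4.

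Ptges encodes the inducible microsomal prostaglandin E synthase, which acts after cyclooxygenase 2. Its level was 36.3, 68.2, 39.8 and 41.5 FPKM in propionic acid replicates 1 to 4, against 42.1, 34.2, 64.1 and 45.5 FPKM in control replicates 1 to 4. The same 2 mice that were high for Ptgs2 were high for Ptges, and the other 6 lay between 34.2 and 45.5 FPKM. Both groups averaged 46.5 FPKM, with an SD of 14.6 in propionic acid skin and of 12.6 in control skin (n = 4 each). The log2 fold change was -0.0085 with an SE of 0.23 (limma adjusted p = 0.999), and it ran between -0.20 and 0.16 with each mouse left out.

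The sequence before the start is shown for the 2 genes that were high in the same mice and for Ptgs1, whose level was steadier. Each is the 250 bases before a transcript start given by RefSeq (GRCm38.p6), 5′ to 3′ along the gene's strand. A protein-coding GENCODE transcript begins at each of these starts. For Ptgs2 this is also the first base of the gene span, while the start used lies 27723 bases inside the RefSeq gene span for Ptges and 13684 bases inside it for Ptgs1. Ptgs2 is read from chr1:150099781-150100030 on the plus strand, Ptges from chr2:30903298-30903547 on the minus strand and Ptgs1 from chr2:36230176-36230425 on the plus strand. Capitals mark matches, on either strand, to 6 short motifs. The letters searched were TATAAA for the TATA box, TGACG for the CRE half-site, CACGTG for the E-box, TTGCNNAA for C/EBP, AGGTCA for the nuclear receptor half-site and GGGCGG for the GC box.
Ptgs2: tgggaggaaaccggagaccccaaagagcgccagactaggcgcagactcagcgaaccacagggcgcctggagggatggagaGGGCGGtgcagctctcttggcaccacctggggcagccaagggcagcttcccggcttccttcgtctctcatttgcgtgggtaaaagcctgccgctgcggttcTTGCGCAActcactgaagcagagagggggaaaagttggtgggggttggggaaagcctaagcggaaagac
Ptges: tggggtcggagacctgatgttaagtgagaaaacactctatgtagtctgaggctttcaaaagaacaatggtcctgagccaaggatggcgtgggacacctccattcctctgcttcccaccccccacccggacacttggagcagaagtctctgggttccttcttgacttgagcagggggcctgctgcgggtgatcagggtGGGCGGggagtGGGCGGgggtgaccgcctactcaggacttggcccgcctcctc
Ptgs1: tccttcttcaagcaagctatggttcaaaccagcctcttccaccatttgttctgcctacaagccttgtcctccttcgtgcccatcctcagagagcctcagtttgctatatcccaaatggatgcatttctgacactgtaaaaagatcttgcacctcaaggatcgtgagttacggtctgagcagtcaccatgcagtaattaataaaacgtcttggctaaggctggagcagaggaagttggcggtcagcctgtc
The Ptgs2 window held a GC box match beginning 170 bases before the start and a C/EBP match beginning 69 bases before it. The Ptges window held 2 GC box matches, beginning 53 and 42 bases before the transcript start used. The Ptgs1 window held no match to the 6 motifs. For each of these genes, a motif not found says only that its letters are not in the window shown. Of 32851 RefSeq windows of this length, 32.7% held the GC box, 9.56% the C/EBP letters, 12.4% the TATA box, 17.8% the CRE half-site, 6.02% the E-box and 14.0% the nuclear receptor half-site. A match is a description of letters and was not tested as a binding site. None of the matches overlapped another.

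Across the 8 mice, Ptgs2 and Ptges had the strongest correlation among the 45 pairs of the 10 enzymes. On log2(FPKM + 1), Pearson's r was 0.904 (exact permutation p = 0.00414, adjusted over the 45 pairs 0.129) and Spearman's rho was 0.762 (exact permutation p = 0.0368, adjusted 0.516). Within groups, with each group's mean removed, r was 0.908. Without the 2 mice farthest from the median of Ptgs2, propionic acid replicate 2 and control replicate 3, r was 0.637, so the relation leans on these mice. Ptgs1 and Alox12 followed, with r = 0.877 (exact permutation p = 0.00575, adjusted 0.129) and rho = 0.738 (exact permutation p = 0.0458, adjusted 0.516), and r was 0.647 without propionic acid replicates 2 and 3. Alox5 ran opposite to both. Its r with Ptgs1 was -0.853 (exact permutation p = 0.0109, adjusted 0.158; rho -0.857, p = 0.0107, adjusted 0.482), and -0.874 without propionic acid replicates 2 and 3. Its r with Alox12 was -0.833 (exact permutation p = 0.014, adjusted 0.158; rho -0.81, p = 0.0218, adjusted 0.49), and -0.774 without propionic acid replicate 2 and control replicate 1. These 4 pairs had an unadjusted p under 0.05, and 0 of the 45 passed after adjustment.

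**Figure D3:**
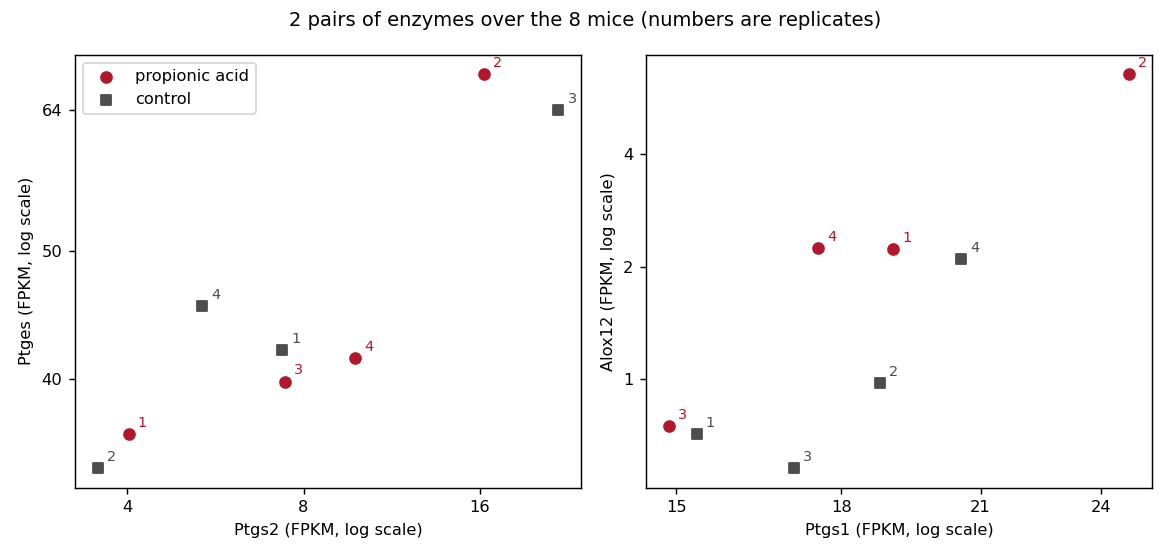
Left, Ptges against Ptgs2, and right, Alox12 against Ptgs1, in FPKM on log axes for 4 propionic acid mice (red circles) and 4 control mice (grey squares); numbers are replicates. Propionic acid replicate 2 and control replicate 3 lie apart at the upper right of the left panel, at 16.3 and 21.8 FPKM of Ptgs2.

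Prostaglandin D is made by 2 unrelated enzymes, and their means differed in opposite directions. Ptgds, the lipocalin-type synthase, had 2.02, 2.36, 2.85 and 2.51 FPKM in propionic acid replicates 1 to 4, against 1.26, 2.17, 1.49 and 1.60 FPKM in control replicates 1 to 4. The groups overlapped by 1 mouse, control replicate 2, which lay above propionic acid replicate 1. Ptgds averaged 2.44 ± 0.347 FPKM in propionic acid skin and 1.63 ± 0.389 FPKM in control skin (SD, n = 4 each). Its log2 fold change was 0.39 with an SE of 0.14 and an interval of 0.09 to 0.70 (limma p = 0.0167 unadjusted, 0.724 adjusted; exact permutation p = 0.0571). With a pseudocount of 0.01 in place of 1 it was 0.60. The value rests on 47 to 105 reads per library, the fewest of the set. Without control replicate 1 the unadjusted limma value was 0.05, and without control replicates 1 and 3 together it was 0.155 with a log2 fold change of 0.25.

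Hpgds, the hematopoietic prostaglandin D synthase of mast cells, macrophages and some T cells, had 6.21, 6.59, 6.75 and 4.49 FPKM in propionic acid replicates 1 to 4, against 9.17, 7.86, 6.58 and 6.64 FPKM in control replicates 1 to 4. The groups overlapped, and the lowest value was in propionic acid replicate 4 and the highest in control replicate 1. Hpgds averaged 6.01 ± 1.04 FPKM in propionic acid skin and 7.56 ± 1.22 FPKM in control skin (SD, n = 4 each). On the log2 scale the difference was -0.29, SE 0.15 (limma p = 0.0816 unadjusted, 0.821 adjusted; exact permutation p = 0.143), and -0.18 without propionic acid replicate 4. Among 11 of 12 mast cell markers in the table, 5 had a higher and 6 a lower mean with propionic acid. They summed to between 711 and 1066 FPKM in propionic acid skin and between 783 and 1327 FPKM in control skin. Of 14 macrophage and monocyte markers, 12 had a lower mean with propionic acid, while Ccr2 and Ly6c2 had a higher mean. The 14 summed to between 944 and 1731 FPKM in propionic acid skin and between 1275 and 2331 FPKM in control skin. No marker of either list was at 0 in all libraries, and the part of these cells in the Hpgds values was not tested.

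Alox5 encodes the 5-lipoxygenase and Alox5ap its activating protein in the nuclear membrane, both typical of myeloid cells. Alox5 had 6.72, 4.92, 8.48 and 7.21 FPKM in propionic acid replicates 1 to 4, against 12.5, 6.85, 9.48 and 7.10 FPKM in control replicates 1 to 4. The highest value was in control replicate 1 and the lowest in propionic acid replicate 2, with overlap between. The log2 fold change was -0.33 with an SE of 0.20 and an interval of -0.79 to 0.12 (limma p = 0.134 unadjusted, 0.848 adjusted; exact permutation p = 0.2). It was -0.20 without propionic acid replicate 2, -0.18 without control replicate 1, the mouse with the highest macrophage marker sum of 2331 FPKM, and -0.046 without control replicates 1 and 3 together. The same macrophage and monocyte list stands beside Alox5 with 12 of 14 lower means, and its part was not tested.

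Alox5ap had 93.7, 65.6, 78.6 and 124.6 FPKM in propionic acid replicates 1 to 4, against 110.2, 85.7, 90.1 and 60.4 FPKM in control replicates 1 to 4. The groups spanned nearly the same range, and the log2 fold change was 0.06, SE 0.23 (limma adjusted p = 0.972), which turned to -0.11 without propionic acid replicate 4 and to -0.10 without control replicate 4. Alox5ap exceeded Alox5 in every mouse, by 9.27 to 17.3 times in propionic acid skin and by 8.52 to 12.5 times in control skin. Ltc4s, which joins leukotriene A to glutathione, had 27.0, 20.4, 13.5 and 17.6 FPKM in propionic acid replicates 1 to 4, against 19.9, 15, 19.9 and 12.3 FPKM in control replicates 1 to 4. The groups overlapped, and the log2 fold change was 0.20 with an SE of 0.22 (limma adjusted p = 0.895). It was 0.041 without propionic acid replicate 1, which held the highest value, 0.070 without control replicate 4, and 0.46 without control replicates 1 and 3 together. Exons of Alox5ap share 189 bases with Gm19719, those of Ltc4s 268 bases with Gm26542 and those of Ptgs1 148 bases with Gm43621, all annotated on the opposite strand, and reads there cannot be told apart because the strand setting is not given in the sources used here.

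Alox15 had the smallest p of the set. In mouse it encodes the leukocyte-type 12/15-lipoxygenase, known from macrophages and eosinophils and induced by interleukins 4 and 13. It had 1.81, 1.43, 2.42 and 1.68 FPKM in propionic acid replicates 1 to 4, against 0.946, 0.744, 0.918 and 1.14 FPKM in control replicates 1 to 4. Every propionic acid mouse lay above every control mouse. Of the 10 enzymes this was the only one without overlap, and 398 of all genes tested (3.16%) had none, 259 of them (2.06%) higher with propionic acid. The mean was 1.84 ± 0.418 FPKM in propionic acid skin and 0.938 ± 0.164 FPKM in control skin (SD, n = 4 each), a ratio of means of 1.96. The log2 fold change of FPKM + 1, which understates the change of a low gene, was 0.54 with an SE of 0.13 and an interval of 0.25 to 0.83 (limma p = 0.00222 unadjusted, 0.417 adjusted; exact permutation p = 0.0286). That exact p is the smallest that 70 regroupings of 4 against 4 can give. Over 18 other settings the log2 fold change ran between 0.45, without propionic acid replicate 3, and 0.96, with limma voom on the recovered reads. With a pseudocount of 0.1 it was 0.89, and with 0.01 it was 0.95. By unadjusted p, 64 of the 12598 genes ranked ahead of it.

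The Alox15 row covers more than the usual gene. Its FPKM and reads (457 to 1466 per library) imply a length of 15324 bases, while GENCODE lists 2454 exon bases for Alox15. For the other 9 enzymes the implied length was 0.564 to 1.27 times the GENCODE exon bases, and for Alox15 it was 6.25 times. RefSeq gives Alox15 a span from 70344147 to 70390538 on chromosome 11, beyond the GENCODE end at 70352031. The deposited values do not show which bases the reads came from, so the Alox15 difference is a difference of this longer row.

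Of 10 eosinophil and basophil markers, 9 were in the table, and mean FPKM with propionic acid was higher for 7 (Ear2, Siglecf, Ccr3, Prg2, Il5ra, Ear1 and Ear6) and lower for 2 (Mcpt8 and Cd200r3). Only 2 of the 9 passed the filter on low values, and they went opposite ways. Ear2 had a log2 fold change of 1.35 (limma adjusted p = 0.724) and Mcpt8 of -1.03 (limma adjusted p = 0.802). The other markers of the list were near the floor, so the count of higher means says little. The 9 summed to between 142 and 281 FPKM in propionic acid skin and between 59.4 and 134.8 FPKM in control skin, without overlap. Most of this was Ear2, an eosinophil-associated ribonuclease, with 129.5 to 265 FPKM in propionic acid skin and 23.9 to 115 FPKM in control skin. Without Ear2 the other 8 summed to between 10.6 and 28.2 FPKM in propionic acid skin and between 12.2 and 51.4 FPKM in control skin. Most of that remainder was Mcpt8, a basophil protease, with 6.75 to 21.4 FPKM in propionic acid skin and 9.52 to 48.0 FPKM in control skin. Siglecf, a surface receptor of eosinophils, had 0.570, 1.1, 1.35 and 1.03 FPKM in propionic acid replicates 1 to 4, against 0.495, 0.302, 0.599 and 0.0941 FPKM in control replicates 1 to 4, and overlapped through propionic acid replicate 1 and control replicate 3. No marker was at 0 in all 8 libraries, though Prg2 was at 0 in control replicate 2. Mean FPKM of the macrophage and monocyte markers was lower with propionic acid for 12 of 14, and higher for Ccr2 and Ly6c2. Mrc1 had 66.3 to 109.7 FPKM in propionic acid skin and 95.05 to 211 FPKM in control skin. Ccr2 had 13.0 to 17.7 FPKM in propionic acid skin and 5.62 to 14.7 FPKM in control skin. Adipocyte markers were higher for 11 of 12, all but Retn, and they were not the only other list to differ. Hair follicle markers were higher for 10 of 10, of which 2 passed the filter. They summed to between 9.54 and 22.6 FPKM in propionic acid skin and between 4.44 and 9.47 FPKM in control skin. Skeletal muscle markers were higher for 8 and lower for 4 of 12. Over all genes tested, 51.7% had a positive log2 fold change. The part of these cell types in the Alox15 values was not tested.

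Alox12, the platelet-type 12-lipoxygenase, which epidermis also makes, had 2.22, 6.54, 0.749 and 2.24 FPKM in propionic acid replicates 1 to 4, against 0.715, 0.977, 0.579 and 2.1 FPKM in control replicates 1 to 4. The groups overlapped at both ends, since propionic acid replicate 3 lay with the low controls and control replicate 4 with the propionic acid mice. Alox12 averaged 2.94 ± 2.50 FPKM in propionic acid skin and 1.09 ± 0.692 FPKM in control skin (SD, n = 4 each), and its log2 fold change was 0.76, SE 0.40 (limma p = 0.0856 unadjusted, 0.823 adjusted; exact permutation p = 0.143). With a pseudocount of 0.01 this was 1.20. Its coefficient of variation of 97.4% was above that of 99.7% of the genes tested. Of 9 platelet markers, Gp9, Gp6, Treml1 and Tubb1 were at 0 or at most 0.0996 FPKM in every library. The list summed to between 84.9 and 195.8 FPKM in propionic acid skin and between 120.6 and 218 FPKM in control skin, nearly all of it Pf4. The part of platelets in the Alox12 values was not tested.

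Among the 4 other lipoxygenases, Alox8 was lower with propionic acid by the widest margin. Alox8 encodes the mouse 8S-lipoxygenase, known for its induction in mouse skin by phorbol ester. It had 1.85, 2.70, 5.16 and 2.23 FPKM in propionic acid replicates 1 to 4, against 9.46, 17.3, 24 and 5.54 FPKM in control replicates 1 to 4. All propionic acid values lay below all control values, although propionic acid replicate 3 and control replicate 4 came close. The mean was 2.99 ± 1.49 FPKM in propionic acid skin and 14.1 ± 8.21 FPKM in control skin (SD, n = 4 each), and the log2 fold change was -1.80, SE 0.40 (limma p = 0.00141 unadjusted, 0.392 adjusted; exact permutation p = 0.0286, the smallest possible). Aloxe3, an epidermal enzyme of barrier lipids, had 4.82 to 11.2 FPKM in propionic acid skin and 3.05 to 9.03 FPKM in control skin (limma adjusted p = 0.887). The groups also overlapped for the epidermal genes Alox12b and Alox12e, named here to complete the list of lipoxygenases.

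**Figure D4:**
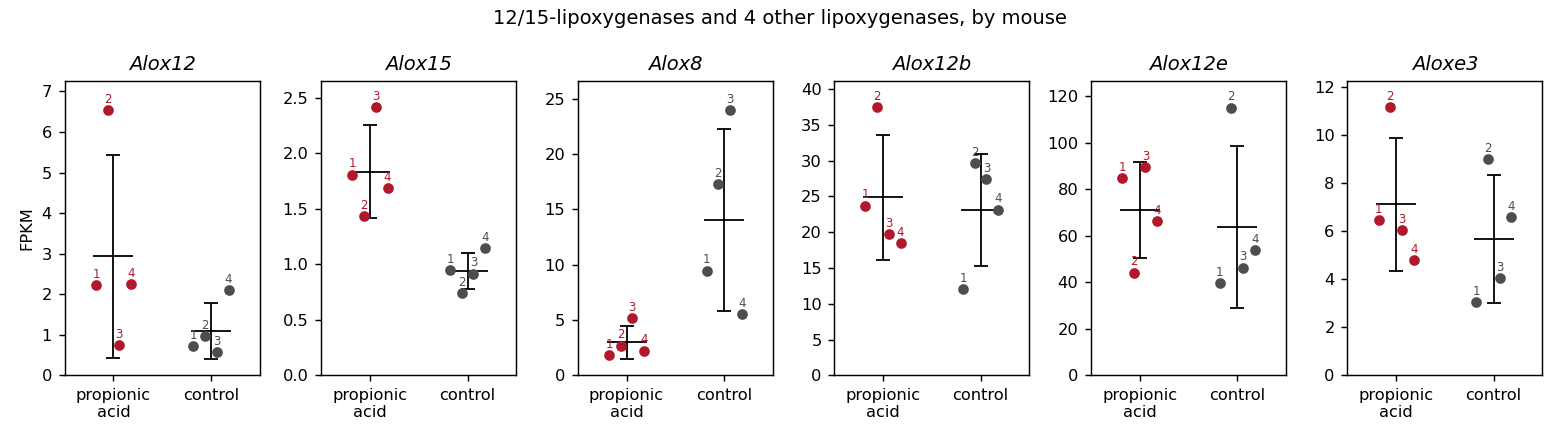
FPKM (vertical axes, from 0) of Alox12 and Alox15 and of 4 other lipoxygenases in 4 propionic acid mice (red) and 4 control mice (grey); numbers are replicates, and black bars are the mean ± SD. Alox8 ranges over 1.85 to 5.16 FPKM in propionic acid skin and 5.54 to 24 FPKM in control skin.

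Around the 10 enzymes, 5 lists of other eicosanoid genes were read in the same fit. Of 49 entries, 46 were in the table and 36 passed the filter, 21 with a positive and 15 with a negative log2 fold change. An unadjusted limma p under 0.05 was found for 3 higher genes and 1 lower gene of the 36, beside 4.07% and 2.21% of all genes tested, and 0 passed after adjustment. The median log2 fold change of the 36 was 0.02. The groups did not overlap for 3 higher genes and 1 lower gene, beside 2.06% and 1.1% of all genes tested. These are the same 4: Cbr1, Pla2g4a and Ephx2 were higher and Alox8 lower.

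Pla2g4a, the cytosolic phospholipase A2 that frees arachidonic acid, had 12.2, 14.8, 11.5 and 12.5 FPKM in propionic acid replicates 1 to 4, against 10.7, 11.2, 10.3 and 10.3 FPKM in control replicates 1 to 4. All propionic acid values lay above all control values by a narrow gap (log2 fold change 0.23, SE 0.10, limma p = 0.0447 unadjusted and 0.786 adjusted, exact permutation p = 0.0286). With each mouse left out, the unadjusted limma p of Pla2g4a ran from 0.0315 (without propionic acid replicate 3) to 0.122 (without propionic acid replicate 2). Ephx2, the soluble epoxide hydrolase that breaks down epoxides of arachidonic acid, had 28.4, 13.6, 15.9 and 14.4 FPKM in propionic acid replicates 1 to 4, against 11.1, 8.37, 9.34 and 11.6 FPKM in control replicates 1 to 4. Its log2 fold change was 0.73 with an SE of 0.22 (limma p = 0.00789 unadjusted, 0.534 adjusted; exact permutation p = 0.0286) and 0.50 without propionic acid replicate 1. Cbr1, a carbonyl reductase that can act on prostaglandin E, averaged 55.3 ± 5.85 FPKM in propionic acid skin and 44.4 ± 3.53 FPKM in control skin (SD, n = 4 each; limma p = 0.0177 unadjusted, 0.724 adjusted; exact permutation p = 0.0286). With each mouse left out, its unadjusted limma p ran from 0.0124 (without control replicate 4) to 0.0591 (without propionic acid replicate 1). Lta4h, which makes leukotriene B, had 31.9 to 35.3 FPKM in propionic acid skin and 30.8 to 32.5 FPKM in control skin (limma adjusted p = 0.874). Slco2a1, a prostaglandin transporter, had 6.97 to 14.8 FPKM in propionic acid skin and 6.99 to 21.5 FPKM in control skin (limma adjusted p = 0.859), and Ptges3, a cochaperone with prostaglandin E synthase activity, had 55.1 to 63.4 FPKM in propionic acid skin and 50.4 to 71.3 FPKM in control skin (limma adjusted p = 0.909).

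With all 8 mice, no receptor for the products had an unadjusted limma p under 0.05. Of 16 in the table, 10 passed the filter, 3 with a positive and 7 with a negative log2 fold change. Of the prostaglandin E receptors, Ptger3 had 4.71, 5.24, 8.13 and 4.89 FPKM in propionic acid replicates 1 to 4, against 6.88, 2.42, 3 and 3.27 FPKM in control replicates 1 to 4 (limma p = 0.0795 unadjusted, 0.821 adjusted; exact permutation p = 0.143). Of the control mice, control replicate 1 reached the propionic acid range. The log2 fold change of Ptger3 was 0.51, and 0.77 without control replicate 1, where the limma values were 0.00266 unadjusted and 0.485 adjusted. Without control replicates 1 and 3 together it was 0.79 (0.00747 unadjusted, 0.934 adjusted). Ptger4 had 4.66 to 6.66 FPKM in propionic acid skin and 5.54 to 8.08 FPKM in control skin (limma adjusted p = 0.935). Ptger2 had 0.376 to 0.704 FPKM in propionic acid skin and 0.449 to 0.487 FPKM in control skin, and Ptger1 had 0.0646 to 0.300 FPKM in propionic acid skin and 0.0309 to 0.173 FPKM in control skin, both below the filter.

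The prostaglandin D receptors were low. Ptgdr had 0.917, 0.592, 0.839 and 0.950 FPKM in propionic acid replicates 1 to 4, against 0.602, 0.633, 0.370 and 0.529 FPKM in control replicates 1 to 4, with overlap through propionic acid replicate 2 (exact permutation p = 0.0857). Ptgdr2, the receptor of type 2 helper cells and eosinophils, had 0.0602 to 0.364 FPKM in propionic acid skin and 0.0604 to 0.210 FPKM in control skin, from 9 to 55 reads per library. Of the leukotriene receptors, Cysltr1 had 1.89 to 3.18 FPKM in propionic acid skin and 2.16 to 4.65 FPKM in control skin (limma adjusted p = 0.928). Ltb4r1, the high-affinity receptor of leukotriene B, had 11.6 to 16.5 FPKM in propionic acid skin and 11.4 to 15 FPKM in control skin (limma adjusted p = 0.95). Ptgfr, the prostaglandin F receptor, had 4.08 to 8.83 FPKM in propionic acid skin and 3.85 to 5.51 FPKM in control skin (limma adjusted p = 0.886).

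In GRCm38, the assembly called mm10, GENCODE vM21 annotates all 10 as protein-coding genes. Each FPKM value is given per gene, not per exon or transcript. Ptgs1 lies at chr2:36230426-36252272 on the plus strand, Ptgs2 at chr1:150100031-150108227 on the plus strand and Ptges at chr2:30889471-30929863 on the minus strand. Ptgds lies at chr2:25466709-25470046 and Hpgds at chr6:65117293-65144908, both on the minus strand. Alox5 lies at chr6:116410077-116461178 on the minus strand, Alox5ap at chr5:149264767-149288153 on the plus strand and Ltc4s at chr11:50236461-50238616 on the minus strand. Alox12, at chr11:70241457-70255353, and Alox15, at chr11:70344152-70352031, are on the minus strand of the same chromosome.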

How the data were processed

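Total RNA of MC903-treated back skin was extracted with TRIzol and sequenced as 8 libraries made with the VAHTS Universal V6 kit, per the labels' protocols. The authors deposited 1 table of FPKM values per gene and library. The submitters' processing notes name the assembly mm10 and list HISAT2 2.1.0, cutadapt and CASAVA. Which program counted reads, with which strand setting and gene models, is not given in the sources used here. FPKM is not a count, so no count test was used. Values were taken as log2(FPKM + 1) and tested with limma 3.58.1 in R 4.3.3 (2-sided, with trend and robust moderation and no term but group), in 12598 genes with 1 FPKM or more in at least 4 libraries, adjusted by the Benjamini-Hochberg method. An exact permutation test over the 70 regroupings was run per gene. Whole reads were recovered from the FPKM steps for all 25378 genes with a tolerance of 0.01 read, to give depth and for a voom alternative. Implied gene lengths assume that FPKM was scaled to these totals. The limma step was run on simulated data with each gene drawn independently, so differences between mice shared by many genes were not part of it. Its outcome is not reported here.

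Members and lists were chosen with earlier results of these data known. Named beyond the 10 enzymes were, of each list of other eicosanoid genes, the 2 with the smallest p, 8 receptors whatever their values, and, outside this rule and after values were seen, Alox12b and Alox12e; the within-mouse ratios were chosen after values were seen. Promoter windows are those of a RefSeq table (GRCm38.p6), which matched 8 of the 10 enzymes by symbol and gives the transcript start used; that start can lie inside the RefSeq gene span. Alternatives were another pseudocount (0.1 and 0.01), another filter, scaling, library weights, plain moderation, the replicate number as a block and leaving out mice. The labels state no batch and no pairing, so the main fit has no block. As a check, same-numbered mice did not deviate together (correlations of -0.319, -0.0806, 0.200 and -0.117).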

Additional observations from a re-analysis of the deposited data

Results flagged for a closer look

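A single mouse lay far from the other 3 of its group in 6 of the 54 groups of 4 examined (27 genes in both groups). About 1 in 20 would be flagged for independent, normally distributed values. Untransformed FPKM of genes measured in the same mice need not follow that rate, so the 2 are not compared. Each flagged mouse had the highest value of its group. Among the 10 enzymes this held for Ptges, with 68.2 FPKM in propionic acid replicate 2 and 41.5 FPKM in the next mouse of its group. Ephx2 had 28.4 FPKM in propionic acid replicate 1, next to 15.9. Ptger3 had 8.13 FPKM and Ptgdr2 0.364 FPKM in propionic acid replicate 3, next to 5.24 and 0.104. Cysltr1 had 4.65 FPKM in control replicate 1, next to 2.36, and Cbr1 had 49.6 FPKM in control replicate 4, next to 43.0.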

How the results depend on the processing

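Over 19 alternatives, Ptgds, Hpgds, Alox5 and Ltc4s kept their direction. Alox15 kept it over the 18 and Alox12 over the 14 in which they passed the filter. None of the 10 enzymes passed an adjusted p of 0.05. The log2 fold change of Alox15 ranged from 0.45 to 0.96 with an unadjusted p of 0.000672 to 0.0155 and an adjusted p of 0.174 to 1. That of Ptgds ranged from 0.25 to 0.60. Alox12 fell below the filter without propionic acid replicate 1, 2 or 4 or control replicate 4, and Alox12 and Alox15 with 1 FPKM required in all 8 libraries. Both genes passed the filter mainly through propionic acid mice. The direction of Alox12 without propionic acid replicate 2, its highest mouse, was therefore not examined. Genes past an adjusted p of 0.05 numbered 0 to 2 with each mouse left out (Ucp3 without control replicate 2, Cbln1 and Nr1d2 without control replicate 3) and 1, Ucp3, with library weights. Genes with an unadjusted p under 0.05 numbered 441 to 1227 with each mouse left out, 492 without control replicates 1 and 3 together, 1351 without a filter and 1916 with library weights. Of the 10 enzymes, 1 to 3 had such a p with each mouse left out, and 1 without control replicates 1 and 3 and with the stricter filter. With the replicate number as a block, 0 genes passed adjustment, 700 had an unadjusted p under 0.05, and 3 of the 10 enzymes did. Some directions turned. Without control replicates 1 and 3 the log2 fold change was -0.064 for Ptgs1, 0.19 for Ptges, -0.16 for Aloxe3 (0.31 with all mice), 0.10 for Cysltr1, -0.039 for Ptges3 and 0.079 for Slco2a1 (-0.46 with all mice), and with library weights it was -0.34 for Ptgs2. With each mouse left out it ranged from -0.059 to 0.17 for Ptgs1, -0.18 to 0.60 for Ptgs2, -0.20 to 0.16 for Ptges, -0.11 to 0.20 for Alox5ap, -0.22 to 0.074 for Cysltr1, -0.023 to 0.13 for Ltb4r1 and -0.13 to 0.023 for Ptger4. The cause of these changes was not tested. With 4 mice per group, the 95% intervals of the 10 enzymes limit what could be seen. On the log2(FPKM + 1) scale they ran from 0.25 to 0.83 for Alox15, the narrowest, to -1.01 to 1.26 for Ptgs2, the widest. Adding 1 narrows the interval of a gene at low FPKM such as Alox15, so the widths do not rank the enzymes by precision.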

Other observations

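The level of Hpgds divided by that of Ptgds, a ratio chosen after the values were seen and not tested, was 3.08, 2.79, 2.37 and 1.79 in propionic acid replicates 1 to 4, against 7.27, 3.61, 4.43 and 4.15 in control replicates 1 to 4, without overlap. Hpgds had a lower and Ptgds a higher mean with propionic acid, so dividing them favours groups that stand apart. The share of such ratios without overlap over all genes was not computed. Ltc4s divided by Alox5 was 4.02, 4.15, 1.59 and 2.44 in propionic acid replicates 1 to 4, against 1.59, 2.19, 2.1 and 1.73 in control replicates 1 to 4, with overlap. The groups also overlapped for the other ratios computed, Ptgs2 over Ptgs1, Ptges over Hpgds, Alox5ap over Alox5 and Alox12 over Alox15.

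Of 12303 tested genes matched to GENCODE by symbol, 13, Alox15 among them, had an implied length at least as far above the GENCODE exon bases as that of Alox15. The median ratio was 0.878, with 0.356 and 1.72 as the 5th and 95th percentiles.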
